A study of Mus musculus with 77 samples.

Results

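Monocytes and their inflammatory cytokines were followed in whole blood through 10 genes: the receptors and surface proteins Ccr2, Csf1r, Cx3cr1, Ly6c2 and Cd14, the calcium-binding protein S100a4, the cytokines Il1b, Tnf and Il15, and the decoy receptor Il1r2. They were chosen by symbol, and all 10 were among the 13084 genes of the blood mRNA table. The blood came from 25 male mice of 8 weeks. Mice of the inbred strains C57BL/6Crl (B6) and DBA/2Crl (D2), as the labels spell them, were compared after chronic social defeat stress (CSDS). The paper names the strains C57BL/6NCrl and DBA/2NCrl. In CSDS a mouse meets an unfamiliar CD-1 aggressor every day, and trunk blood was collected 6 to 8 days after the last session. Defeated mice were called susceptible when their social interaction ratio lay more than 1 SD below the mean of same-strain controls, and resilient otherwise, and the controls lived beside another mouse behind a divider and were never defeated. By the paper, the mice profiled were the extremes of these classes, and the controls those nearest their mean ratio. The paper's timeline places a forced swim test before tissue collection. There were 5 B6 control, 5 B6 resilient, 5 B6 susceptible, 5 D2 control and 5 D2 susceptible mice, and D2 resilient mice were not analysed here. By the labels no group carried a transgene or a deletion and no drug was given, and the groups differ there in strain and in defeat with its outcome. The mouse names began in EC3 or EC4 for B6 mice and in ED3, ED4 or ED6 for D2 mice, and the labels do not explain these prefixes. The paper reports a longer mean contact with the aggressor for B6 than for D2 mice.

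For 2 D2 mice the label and the data column disagreed. The mouse labelled D2 control 2 had a column name ending in the sign for susceptible, and the mouse labelled D2 susceptible 2 had one ending in the sign for control. The labels were used as the main grouping, and the fold changes and counts of called genes on D2 mice were also computed with the groups of the column names and without both mice. Mice are numbered here within their group only to name them.

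Monocytes are made in the bone marrow and circulate in blood in a classical and a non-classical form. In the mouse, classical monocytes carry Ly6C and CCR2, the receptor for CCL2 that lets them leave the marrow and enter inflamed tissue, whereas non-classical monocytes carry CX3CR1, the receptor for fractalkine, and patrol the vessel wall. Both carry CSF1R, the receptor for the growth factor CSF1. When a Toll-like receptor senses bacterial products, with CD14 as its coreceptor for lipopolysaccharide, monocytes and neutrophils make interleukin 1 beta and tumor necrosis factor. IL1R2 binds interleukin 1 without passing the signal on, and interleukin 15, made by monocytes and other cells, keeps natural killer cells and memory T cells alive.

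The bases just upstream of the start of 6 of these genes are shown because 4 of them (Ccr2, Cx3cr1, Ly6c2 and S100a4) varied together from mouse to mouse, and the other 2 (Il1b and Tnf) are the inflammatory cytokines of the set. Each run holds the last 80 bases before the RefSeq start, 5′ to 3′ on the gene's strand, of GRCm38.p6, at chr9:124102103-124102182 (+) for Ccr2, chr9:120068297-120068376 (-) for Cx3cr1, chr15:75111972-75112051 (-) for Ly6c2, chr3:90603690-90603769 (+) for S100a4, chr2:129371140-129371219 (-) for Il1b and chr17:35202008-35202087 (-) for Tnf. Capitals mark the TATA box letters TATAAA.
Ccr2: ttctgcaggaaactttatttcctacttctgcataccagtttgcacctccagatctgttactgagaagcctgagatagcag
Cx3cr1: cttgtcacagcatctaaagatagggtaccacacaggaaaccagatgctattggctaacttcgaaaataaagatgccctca
Ly6c2: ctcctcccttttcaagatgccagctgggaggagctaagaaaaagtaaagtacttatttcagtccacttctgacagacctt
S100a4: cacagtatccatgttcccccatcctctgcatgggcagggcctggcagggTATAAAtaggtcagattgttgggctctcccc
Il1b: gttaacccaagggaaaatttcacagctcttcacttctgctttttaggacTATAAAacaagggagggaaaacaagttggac
Tnf: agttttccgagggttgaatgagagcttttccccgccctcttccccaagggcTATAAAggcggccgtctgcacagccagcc
TATAAA began 31 bases before the start in Il1b and in S100a4, and 29 bases before it in Tnf. It was in neither strand of the 250 bases upstream of Ccr2, Cx3cr1, Ly6c2 or Il1r2, and 12.4% of 32851 promoter windows of that length held it on either strand. For Ly6c2 the window farther upstream of 2 was used. The RefSeq starts of Ccr2, Cx3cr1 and Il1r2 lie inside the gene spans that gave the exon lengths, so an earlier start was not looked at. Promoters of Csf1r, Cd14 and Il15 were not analysed here.

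Between 9751603 and 15878495 reads per mouse (median 13290205) fell on the 13084 genes. The deposited log2 CPM (read counts scaled to the size of the library, on a log2 scale) were scaled to an effective library size, which was 0.644 to 1.53 times those reads. Reads per mouse ranged from 539 to 5403 for Ccr2, from 408 to 3385 for Il1b, from 269 to 1667 for Csf1r, from 144 to 834 for Ly6c2, from 124 to 604 for Cx3cr1 and from 56 to 510 for S100a4. The other 4 genes were counted on fewer reads, with 29 to 319 for Il15, 25 to 233 for Il1r2, 14 to 120 for Tnf and 5 to 143 for Cd14. Ly6c2 has the near-identical neighbour Ly6c1, so its count is uncertain where the counting split reads between them, and Il1b overlaps the antisense gene Il1bos. The spans of Csf1r, Cx3cr1, S100a4 and Il1r2 overlap other genes on their own strand, and the part of this in their counts was not tested. Markers of erythroid cells, platelets, neutrophils, monocytes, B, T and natural killer cells were present in every group.

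The levels of the genes per length of exon (log2 CPM per kb, mean ± SD over 25 mice) set Il1b first, at 5.62 ± 0.75, followed by S100a4 at 4.72 ± 0.58 and Ccr2 at 4.49 ± 0.66. Il1b was above S100a4 in 23 of 25 mice, by 0.89 on the log2 scale (exact sign-flip permutation test within mice, two-sided, p = 3.04e-06, adjusted p over the 9 neighbouring pairs = 9.12e-06). Csf1r (3.19 ± 0.49) and Ly6c2 (3.16 ± 0.49) came next and did not differ beyond their spread, with Csf1r higher in 13 of 25 mice (exact p = 0.755). The fractalkine receptor Cx3cr1 stood at 2.18 ± 0.45, below Ly6c2 in 25 of 25 mice. Il15 (1.83 ± 0.63) and Il1r2 (1.79 ± 0.66) were not apart from each other (exact p = 0.719), and neither were Tnf (0.99 ± 0.55) and Cd14 (0.81 ± 0.94), the lowest of the set (exact p = 0.254). Il1b was first in each of the 5 groups. With the length of the longest transcript in place of all exons, Il1r2 moved ahead of Cx3cr1 and Il15 with neighbours in that order not apart (exact p = 0.835 and 0.451), and Csf1r was above Ly6c2 (exact p = 0.00638, adjusted p = 0.00957).

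**Figure D1:**
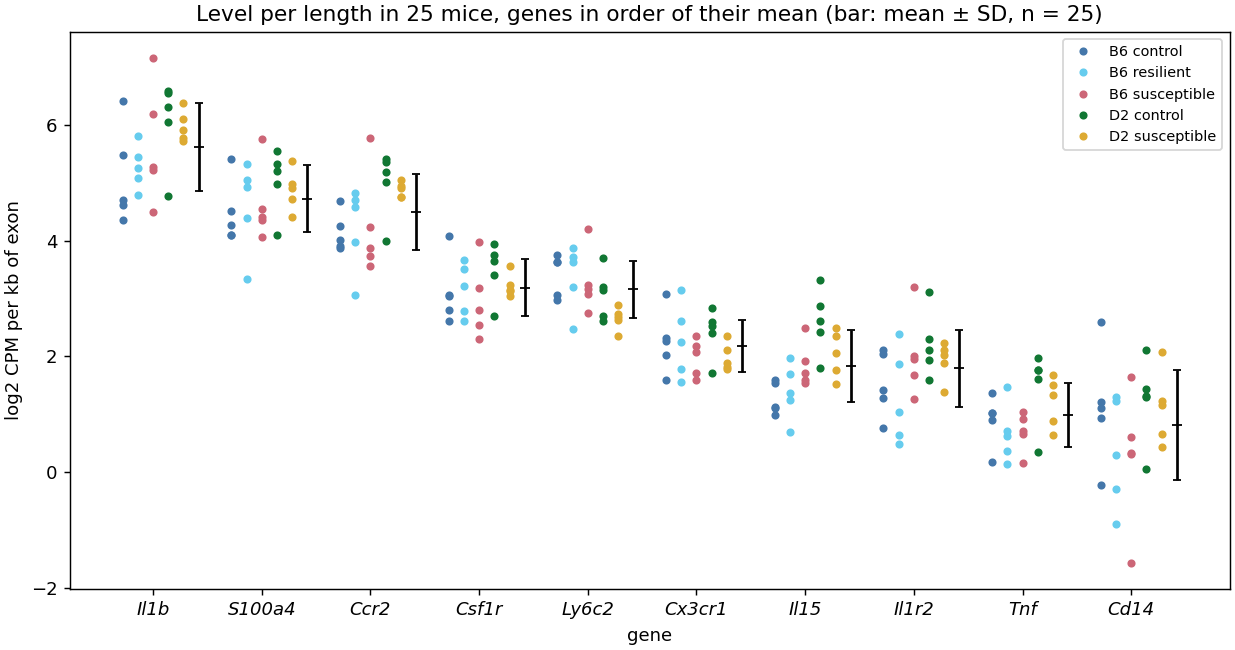
Level of each gene per length of exon (y axis, log2 CPM per kb) in 25 mice, 1 point per mouse, coloured by group, with genes in the order of their mean (x axis) and bars for mean ± SD over 25 mice. Il1b, S100a4 and Ccr2 lie above the other 7 genes, and Tnf and Cd14 are lowest.

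The study asked of blood whether responses to CSDS can be read in an accessible tissue. The comparisons were fitted with limma over all 13084 genes. Called here means a nominal limma p under 0.05 together with a difference of 1.2-fold or more. In B6 resilient mice against controls, 2.11% of all genes were called and 0 of the 10 genes. In B6 susceptible mice against controls, 4.50% of all genes were called and 1 of the 10, Il15, which was higher. In B6 susceptible mice against resilient mice, 2.03% of all genes were called and 0 of the 10. In D2 susceptible mice against controls, 1.57% of all genes were called (6.80% with the column names) and 1 of the 10, again Il15, which was lower. There the means of all 10 genes lay below those of controls by the labels, with a median log2 fold change of -0.28 where that of all genes was -0.02, whereas 6 of 10 lay above them with the column names (median 0.07). After adjustment over all genes, 0 genes of the table stayed under 0.05 in any of these 4 comparisons, against 225 to 610 genes at a nominal p under 0.05. In bulk blood, fewer cells of a type and less RNA per cell cannot be told apart.

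**Figure D2:**
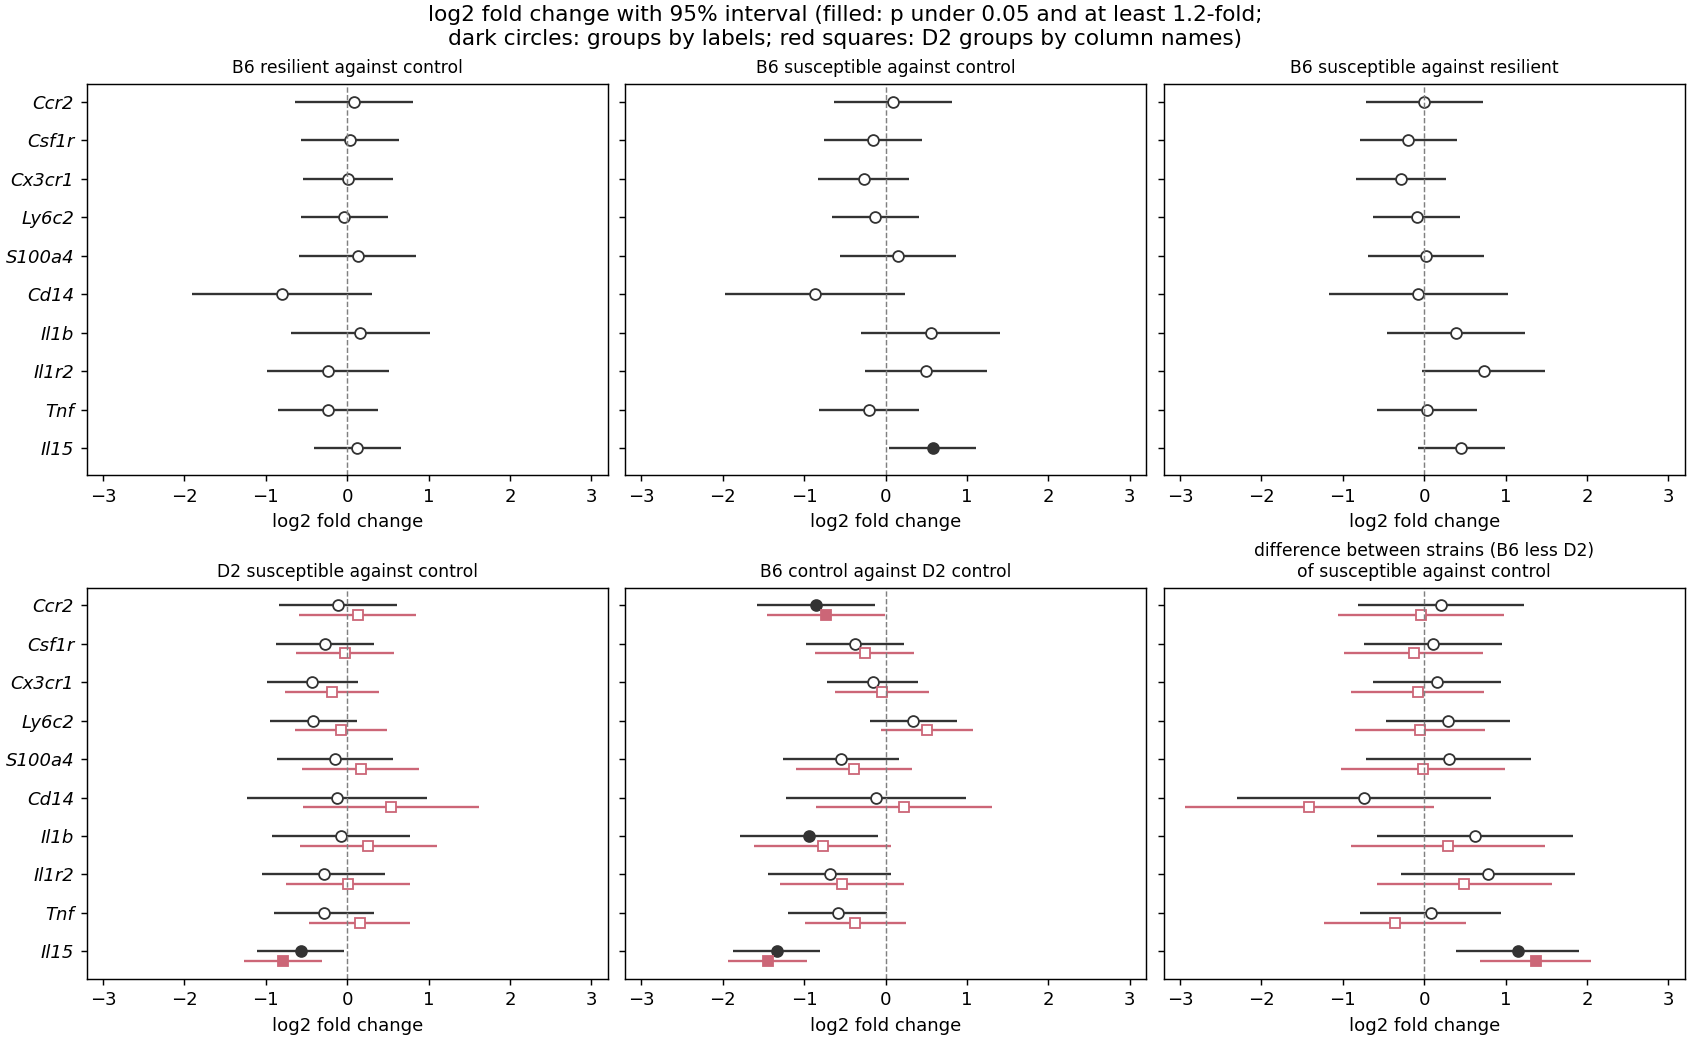
Fold changes of the 10 genes (x axis, log2; bars, 95% intervals from limma) in the 5 comparisons and in the difference between strains, with groups by labels as dark circles and D2 groups by column names as red squares, filled where called. Il15 is the gene called in susceptible mice of both strains, at 0.58 in B6 and -0.57 in D2 mice, and most other intervals include 0.

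The genes of classical monocytes did not pass the test with defeat in either strain. Ccr2, the receptor for CCL2, was at 6.62, 6.66, 6.76, 7.00 and 7.44 log2 CPM in B6 controls, at 5.82, 6.73, 7.34, 7.45 and 7.58 in resilient mice, and at 6.31, 6.48, 6.62, 6.99 and 8.52 in susceptible mice. The groups overlapped, and the susceptible range was widened by mouse 1 alone. The log2 fold change was 0.09 in both resilient and susceptible mice against controls (95% interval -0.63 to 0.81 for each). By mouse names, resilient less control was -0.51 in EC3 (3 against 2) and 0.71 in EC4 (2 against 3). Susceptible less control was 0.28 in EC3 (2 against 2) and -0.04 in EC4 (3 against 3). Ly6c2, which encodes the Ly6C protein, ranged from 4.43 to 5.20 in B6 controls, 3.92 to 5.32 in resilient and 4.21 to 5.66 in susceptible mice, with log2 fold changes of -0.03 and -0.12 against controls. S100a4, a calcium-binding protein of migrating leukocytes, gave 0.13 (-0.59 to 0.85) and 0.15 (-0.56 to 0.87). In EC3 and EC4 names, resilient less control was -0.30 and 0.38 for Ly6c2 and -0.53 and 0.89 for S100a4. Susceptible less control was 0.31 and -0.42 for Ly6c2 and 0.40 and -0.01 for S100a4.

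Csf1r and Cx3cr1 did not pass the test in any comparison of the main fit either. Csf1r ranged from 5.14 to 6.60 in B6 controls, 5.14 to 6.19 in resilient mice and 4.83 to 6.50 in susceptible mice, and differed by 0.04 and -0.16 from controls. Cx3cr1 ranged from 3.76 to 5.25, from 3.72 to 5.32 and from 3.77 to 4.53 in the same groups, with differences of 0.01 and -0.27. In EC3 and EC4 names, resilient less control was -0.48 and 0.62 for Csf1r and -0.35 and 0.50 for Cx3cr1. Susceptible less control was 0.23 and -0.42 for Csf1r and -0.07 and -0.40 for Cx3cr1. In D2 mice the difference of Cx3cr1 between susceptible mice and controls was -0.43 (-0.98 to 0.13), and of Ly6c2 -0.41 (-0.95 to 0.12). Cx3cr1 became a nominal call without D2 control mouse 5 (-0.60) and with the 2 D2 groups alone in the fit (-0.43). With sample weights Cx3cr1 (-0.62), Ly6c2 (-0.64) and Csf1r (-0.45) were called, where 992 of 13084 genes were. The column names brought Cx3cr1 and Ly6c2 nearer 0, at -0.19 and -0.08.

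Cd14, the coreceptor for lipopolysaccharide, had the widest spread. In B6 controls its log2 CPM was 0.57, 1.73, 1.89, 2.01 and 3.38, in resilient mice -0.10, 0.50, 1.09, 2.01 and 2.09, and in susceptible mice -0.79, 1.10, 1.12, 1.39 and 2.43. The groups overlapped throughout. The means of resilient and susceptible mice lay below that of controls by -0.80 (-1.90 to 0.31) and -0.87 (-1.97 to 0.24), which did not pass the test (exact permutation p = 0.27 and 0.254). Both became nominal calls without B6 control mouse 1, at -1.13 and -1.20, and that of susceptible mice also without susceptible mouse 1, at -1.21.

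Among the cytokines, Il1b was at 5.28, 5.55, 5.63, 6.41 and 7.34 log2 CPM in B6 controls, at 5.71, 6.01, 6.18, 6.38 and 6.74 in resilient mice and at 5.43, 6.15, 6.20, 7.11 and 8.09 in susceptible mice. The groups overlapped, and susceptible against control gave 0.55 (-0.30 to 1.40, exact permutation p = 0.381). The 2 sets of mouse names pulled apart, with 2.01 in EC3 (2 against 2) and -0.42 in EC4 (3 against 3). Leaving out B6 control mouse 5 or susceptible mouse 5 gave a nominal call, at 0.88 and 0.85. Tnf ranged from 0.89 to 2.08 in B6 controls, 0.85 to 2.18 in resilient and 0.87 to 1.75 in susceptible mice, and its differences from controls were -0.24 and -0.20. In D2 mice Tnf differed by -0.28 (-0.89 to 0.33) between susceptible mice and controls. This became a nominal call without D2 control mouse 5 (-0.57) and with sample weights (-0.58), and turned to 0.16 with the column names.

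Il1r2, the decoy receptor, had the smallest limma p of the 10 genes between susceptible and resilient B6 mice. It was at 1.42, 1.58, 1.97, 2.80 and 3.33 log2 CPM in resilient mice and at 2.20, 2.60, 2.88, 2.94 and 4.12 in susceptible mice, with controls at 1.69, 2.22, 2.34, 2.98 and 3.04. The difference between susceptible and resilient mice was 0.73 (-0.02 to 1.49, limma nominal p = 0.0565, adjusted p = 1, exact permutation p = 0.167). It became a nominal call without resilient mouse 3 or 5 or susceptible mouse 2 or 5, reaching 1.01 without resilient mouse 5. Il15 in the same comparison was at 0.45 (-0.08 to 0.99, exact permutation p = 0.151), and at 0.60 without resilient mouse 3, where it was called.

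**Figure D3:**
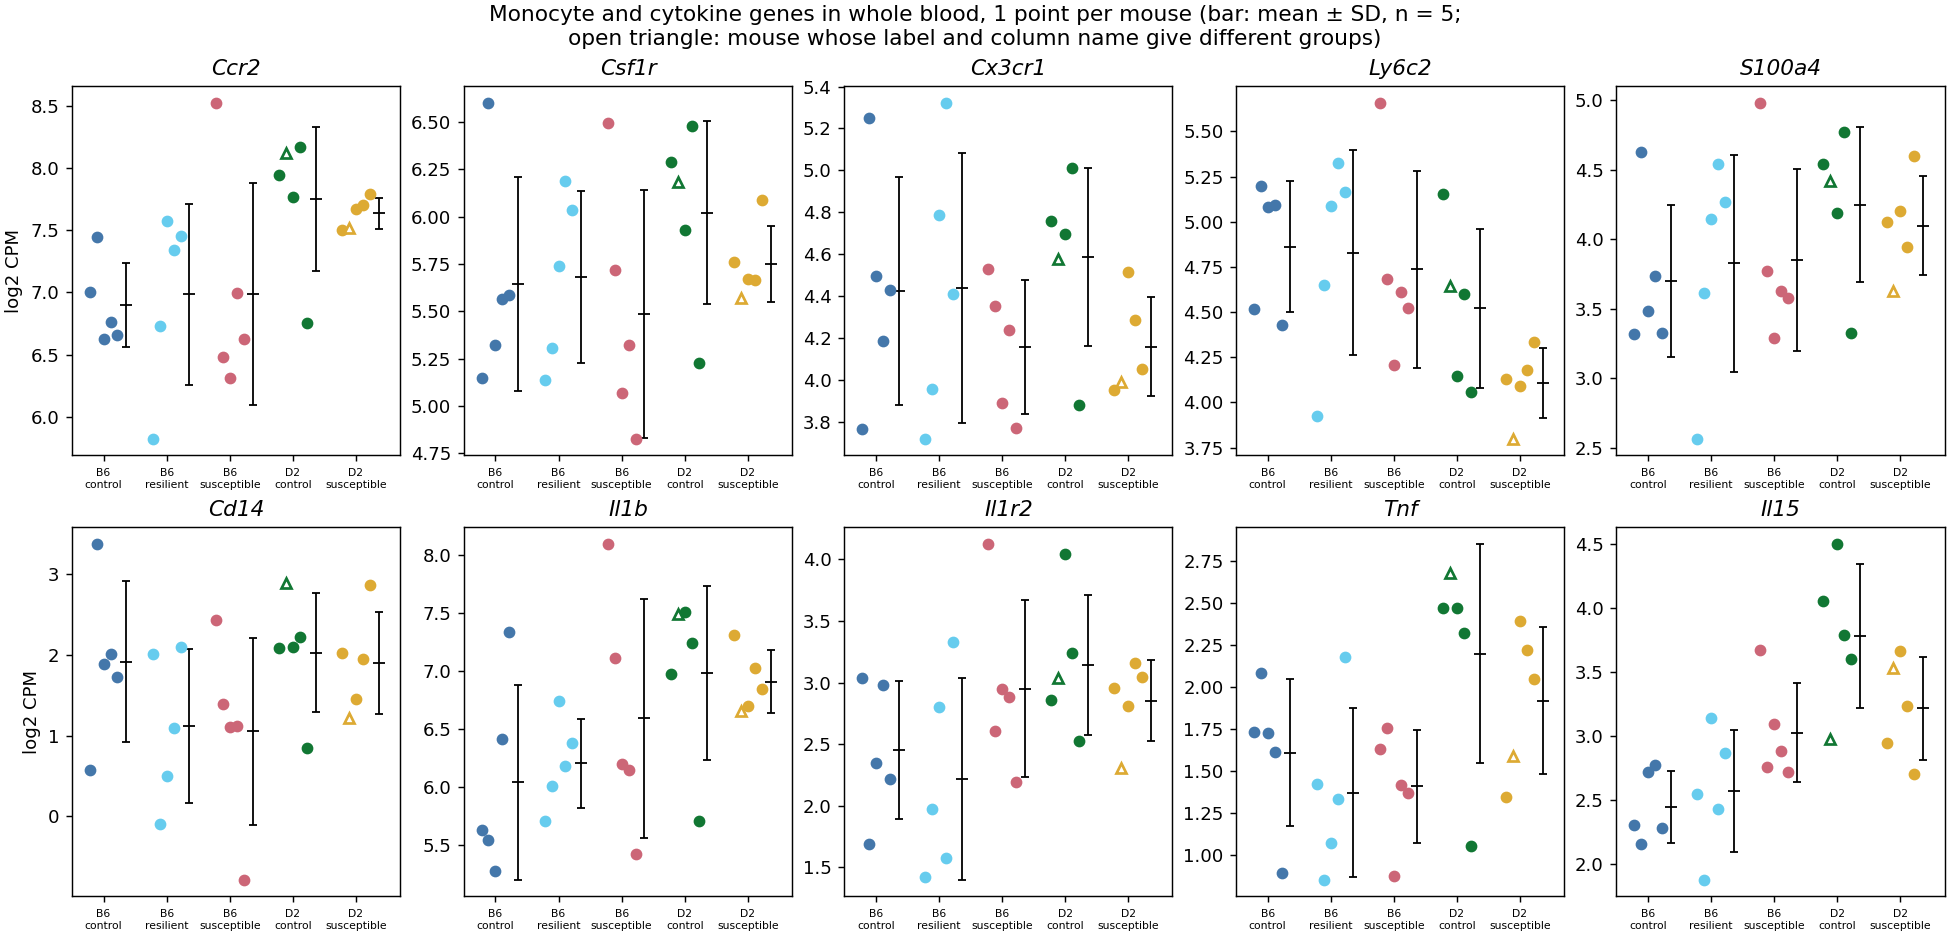
Log2 CPM (y axis) of each of the 10 genes in each mouse, with 5 mice a group by the labels (x axis), bars for mean ± SD and open triangles for the 2 mice whose label and column name disagree. B6 susceptible mouse 1 is the highest of its group for 9 of the 10 genes, and D2 control mouse 5 is the lowest of its group for 9 of them.

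Single mice stood out for most of the genes at once. B6 susceptible mouse 1 held the highest value of its group for 9 genes, all except Tnf, and D2 control mouse 5 the lowest for 9, all except Il15. B6 resilient mouse 1 was lowest for 7 genes and B6 control mouse 2 highest for 7. B6 susceptible mouse 1 also had the highest summed neutrophil markers of the 25 mice, at 12.54 log2 CPM, and the fewest reads, 9751603. D2 control mouse 5 had the lowest neutrophil sum of its group, 10.67, and the highest erythroid sum of its group, 17.42.

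Il15, which supports natural killer and memory T cells, lies on the minus strand at chr8:82331632-82403222. In B6 control mice its log2 CPM was 2.15, 2.28, 2.30, 2.72 and 2.77, in B6 resilient mice 1.88, 2.43, 2.54, 2.86 and 3.14, and in B6 susceptible mice 2.72, 2.76, 2.88, 3.09 and 3.67. Of the 5 susceptible mice 3 were above every control and the other 2 lay within the range of the controls. The level was 1.49-fold higher in susceptible mice (8.40 ± 2.54 CPM, SD, n = 5, against 5.53 ± 1.10), with a log2 fold change of 0.58 and a 95% interval of 0.04 to 1.11 (limma, nominal p = 0.035, adjusted p = 0.968, two-sided exact permutation p = 0.0317). The call ended when values were scaled to total reads (0.43), with voom or sample weights, and without B6 control mouse 1, 2 or 5 or B6 susceptible mouse 1 or 3, and without susceptible mouse 1 it was 0.42. Among mice with names beginning in EC3 the difference was 0.99 (2 against 2) and among those beginning in EC4 it was 0.31 (3 against 3).

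In D2 mice the order was the other way round. D2 controls had 2.98, 3.60, 3.79, 4.05 and 4.50 log2 CPM of Il15, and D2 susceptible mice had 2.70, 2.94, 3.23, 3.53 and 3.66. The value of 2.98 belonged to D2 control mouse 2 and that of 3.53 to D2 susceptible mouse 2, the 2 mice with conflicting names. By the labels, Il15 was 1.48-fold lower in susceptible mice (9.56 ± 2.57 CPM, SD, n = 5, against 14.6 ± 5.48), with a log2 fold change of -0.57 and a 95% interval of -1.10 to -0.03 (limma, nominal p = 0.0379, adjusted p = 0.999), while the exact permutation test gave p = 0.103. With the column names the difference was -0.79 (-1.27 to -0.31, limma p = 0.00247, adjusted p = 0.686, exact permutation p = 0.0238), and without both mice it was -0.85 (-1.40 to -0.30). The call by labels ended with scaling to total reads, with the name prefix as a term, with D2 mice alone in the fit, and without D2 control mouse 1, 3 or 4 or D2 susceptible mouse 1, 4 or 5, with -0.39 without control mouse 3. Within the names beginning in ED4, which hold both conflicting mice, the sign turned with the grouping, to 0.50 by the labels (3 against 1) and -0.24 by the column names, while it was -1.11 in ED3 (1 against 1) and -1.26 in ED6 (1 against 3).

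The difference between the strains in the response of Il15 was tested as well. Susceptible less control in B6 mice exceeded that in D2 mice by 1.15 on the log2 scale (0.39 to 1.91, limma adjusted p = 0.918), and Il15 was the 1 gene of the 10 called, where 5.37% of all genes were (10.1% with the column names). Regrouped by the column names, it was 1.37 (0.69 to 2.05, limma adjusted p = 0.224). It remained called under all 11 other settings tried and without any 1 mouse, between 0.97 and 1.43.

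The median of the platelet markers had the sign of Il15 in each of these comparisons. Of the 8 listed genes, 6 were called higher in B6 susceptible mice against controls, where 4.50% of all genes were called (median log2 fold change 0.86), and the summed level ran from 12.17 to 13.67 log2 CPM in susceptible mice against 10.92 to 12.77 in controls. In D2 mice 0 of 8 were called by the labels (median -0.39), where 1.57% of all genes were called, and 5 of 8 were lower with the column names (median -0.76), where 6.80% were, with sums of 11.42 to 13.20 in susceptible and 12.06 to 13.99 in control mice. In the difference between strains 6 of 8 were higher (median 1.25) where 5.37% of all genes were called, and 8 of 8 with the column names, where 10.1% were. Across the 25 mice with group means removed, Il15 followed the summed platelet markers with r = 0.72 and rho = 0.73 (permutation within groups, p = 9e-05 and 0.00013, adjusted over 160 relations of genes with lists 0.00352 and 0.00389). It was 0.70 without the 2 mice farthest from the median, 0.53 in B6 and 0.90 in D2 mice, and 0.64 with the column names. A single gene made up 44.6% of the summed CPM of the platelet list. The part of platelets in the Il15 result was not tested.

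**Figure D4:**
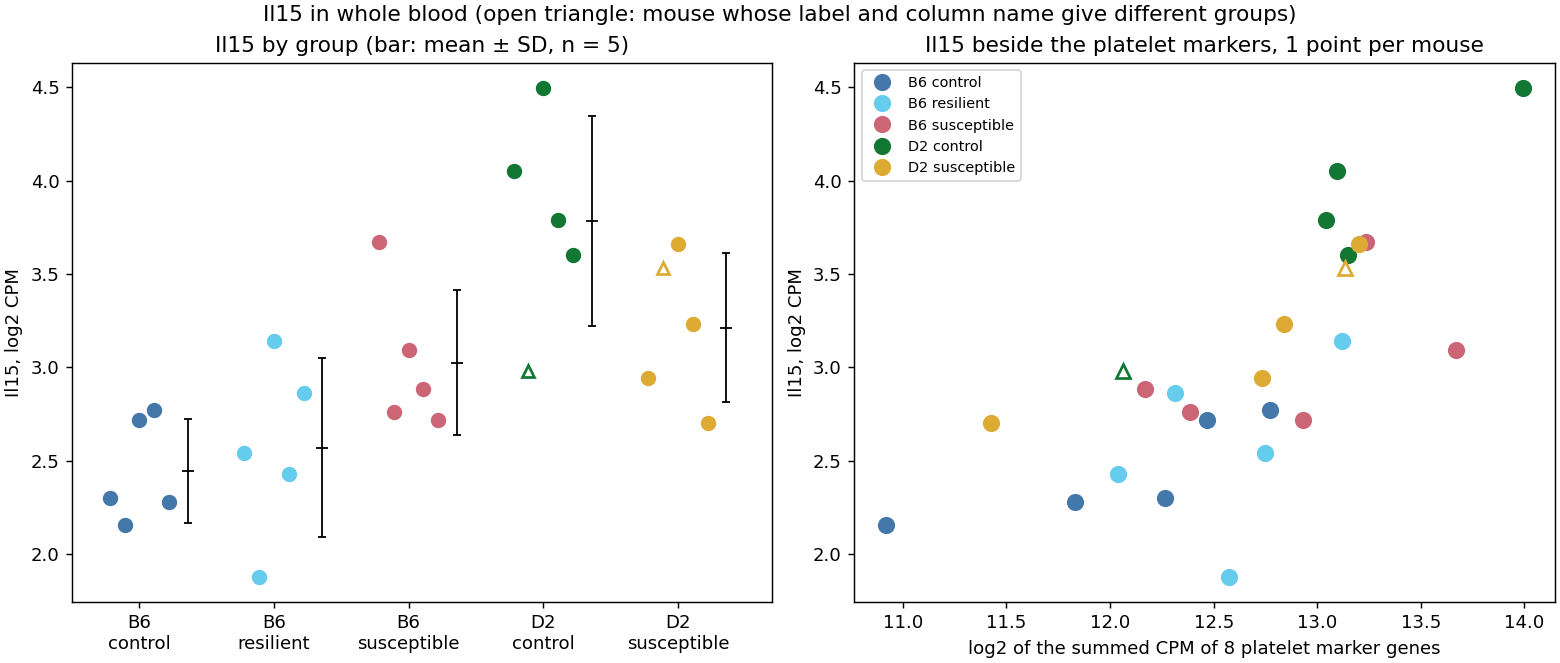
Left, Il15 (y axis, log2 CPM) in each mouse by group with mean ± SD (n = 5), and right, the same values against the log2 of the summed CPM of 8 platelet marker genes (x axis), coloured by group. Il15 spans 2.15 to 2.77 in B6 controls and 2.98 to 4.50 in D2 controls, and mice with more platelet marker reads have more Il15 (r = 0.72 with group means removed).

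The strains differed more than the defeated and control mice within a strain. Between B6 and D2 controls 26.4% of all genes were called (29.8% with the column names), and 3 of the 10: Ccr2, Il1b and Il15, all lower in B6. At an adjusted p under 0.05, 15.5% of all genes and 1 of the 10, Il15, passed. For 9 of the 10 the mean was lower in B6, with a median log2 fold change of -0.57 where that of all genes was -0.01, and Ly6c2 was the one that was not, at 0.34 (-0.20 to 0.88). Cd14, at -0.11, turned to 0.22 with the column names.

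Il15 was 2.53-fold lower in B6 controls than in D2 controls, with a log2 fold change of -1.34 (-1.87 to -0.80, limma adjusted p = 0.000567). The 2 groups did not overlap for Il15, since the highest B6 control was at 2.77 and the lowest D2 control at 2.98, and the exact permutation p of 0.00794 is the smallest that 5 against 5 mice allow. It was the only gene of the 10 whose groups did not overlap in any of the 5 comparisons. The groups did not overlap for 12.0% of all genes between the controls of the strains, 0.26% in B6 resilient mice against controls, 0.321% in B6 susceptible mice against controls, 0.183% in B6 susceptible against resilient mice and 0.482% in D2 susceptible mice against controls. Under the column names it was -1.45 (adjusted p = 5.76e-05), and without any 1 mouse it stayed between -1.54 and -1.16. Platelet markers were lower in B6 controls too, with 5 of 8 called where 26.4% of all genes were (median -0.98) and sums of 10.92 to 12.77 against 12.06 to 13.99. Their part in the strain difference was not tested.

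Ccr2, at chr9:124101950-124113557, was at 6.75, 7.77, 7.95, 8.12 and 8.17 log2 CPM in D2 controls, above the B6 controls in 4 of 5 mice. It was 1.81-fold lower in B6 controls (-0.85, -1.57 to -0.13, limma p = 0.0223, adjusted p = 0.107, exact permutation p = 0.0317). By the column names it was -0.73 and still called, and the call ended without D2 control mouse 2 (-0.76) or 4 (-0.75) and without both conflicting mice. In D2 susceptible mice it was at 7.50, 7.52, 7.67, 7.70 and 7.80, a spread of 0.29 where the controls spread over 1.42. The difference of -0.11 between these groups did not pass the test.

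Il1b, at chr2:129364570-129371139, was at 5.71, 6.97, 7.24, 7.49 and 7.51 log2 CPM in D2 controls and 1.92-fold lower in B6 controls (-0.94, -1.79 to -0.09, limma nominal p = 0.0314, adjusted p = 0.135, exact permutation p = 0.0952). The groups overlapped. The call ended with the column names (-0.78), without both conflicting mice (-0.82), and without B6 control mouse 1, 2 or 3 or D2 control mouse 2, 3 or 4, with -0.75 at the least. In D2 susceptible mice Il1b was at 6.66, 6.70, 6.85, 7.02 and 7.32, which did not differ from controls (-0.07, -0.93 to 0.78). Tnf (-0.59, -1.20 to 0.02), Il1r2 (-0.69, -1.44 to 0.07), S100a4 (-0.55, -1.27 to 0.17) and Csf1r (-0.38, -0.98 to 0.22) pointed the same way without passing. Each of these 4 was called without 1 of the mice. For Tnf this was B6 control mouse 2 (-0.71) or D2 control mouse 5 (-0.88, limma adjusted p = 0.0277). S100a4 was called without the same mice (-0.78 each) and Csf1r without B6 control mouse 2 (-0.62). Il1r2 was called without B6 control mouse 1 (-0.83) or 4 (-0.82) or D2 control mouse 5 (-0.84). Apart from Tnf without D2 control mouse 5, these calls had a limma adjusted p of 0.152 or more. With sample weights Csf1r (-0.66), S100a4 (-0.85) and Tnf (-0.80) had a limma adjusted p of 0.025, 0.0139 and 0.0154, and Il1r2 (-0.62) one of 0.121. Reads of both strains were aligned to the B6 reference genome, and the part of this in the strain differences was not tested. B6 and D2 mice share no name prefix, so strain and prefix cannot be told apart in these differences.

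The wider gene lists placed these values in their pathways. In B6 susceptible mice against controls, where 4.50% of all genes were called, 0 of 18 classical monocyte genes, 0 of 17 non-classical monocyte genes, 0 of 18 genes of interleukin 1 and the inflammasome and 0 of 19 other cytokine and chemokine genes were called. Of 19 genes of TNF and NF-kappaB, 1 was lower, the inhibitor Nfkbia (-0.39). Of 16 genes of lipopolysaccharide recognition, 1 was lower, the signalling kinase Irak2 (-0.31). Of 10 S100 genes, 2 were higher, S100a1 (0.82) and S100a10 (0.47), and of 24 monocyte and macrophage genes 1 was higher, Fcer1g, the common chain of Fc receptors (0.50). Of 13 genes of interleukin 15 and the common gamma chain, Il15 itself was the 1 called. Medians of these 9 lists ran from -0.18 to 0.21, where that of all genes was 0.02. When the D2 groups of the same fit followed the column names, F13a1 of the classical monocyte list (0.68) and the kinase Jak3 of the common gamma chain list (0.47) were called as well. Which blood cells these reads came from was not tested.

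In B6 resilient mice against controls, where 2.11% of all genes were called, the interleukin 7 receptor Il7r (-0.45) and the survival gene Bcl2a1d (-0.90) were lower, and Ly96, the partner of TLR4 in binding lipopolysaccharide, was higher (0.71). Bcl2a1d was not called when the D2 groups followed the column names. No gene was called in the lists of classical monocytes, monocytes and macrophages, interleukin 1, TNF and S100 genes. Ly96 was lower in susceptible than in resilient mice (-0.59), the 1 gene called of the 9 lists in that comparison. In D2 susceptible mice against controls Il15 was the only gene of these 9 lists called by the labels. With the column names Jak3 (0.78), Aim2 (0.39) and Nfkb2 (0.39) were called higher there, and Il7 (-1.82), F13a1 (-0.86), Cd9 (-0.75) and S100a1 (-0.73) lower. In the difference between strains, S100a1 (1.14), F13a1 (1.09), Cxcr2 (1.00), Fcer1g (0.88) and Dusp16 (0.85) were among the genes called beside Il15 by the labels, each with the larger value in B6 mice, and Cxcr2 and Dusp16 were not called with the column names.

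Between the controls of the 2 strains, where 26.4% of all genes were called (29.8% with the column names), members of each list were called in both directions except in the monocyte and macrophage list. There 2 of 24 were lower in B6, the transcription factor Spi1 (-0.69) and the pore-forming Mpeg1 (-0.53). Of the genes of interleukin 1 and the inflammasome 3 of 18 were higher and 5 lower in B6, with the DNA sensor Aim2 higher (1.23, limma adjusted p = 5.77e-07) and the inflammasome sensors Nlrp1b (-1.05) and Nlrp3 (-1.08) and the receptor antagonist Il1rn (-0.89) lower. Of those of lipopolysaccharide recognition 2 of 16 were higher and 3 lower, with the receptor Tlr1 (1.77) and the inhibitor Irak3 (0.44) higher and Tlr6 (-1.21) and Ly96 (-1.15) lower. Of TNF and NF-kappaB 4 of 19 were higher, Traf1 among them (0.90), and 4 lower, with both TNF receptors, Tnfrsf1b (-1.11) and Tnfrsf1a (-0.98), and the TNF-releasing protease Adam17 (-0.32) lower. Of the common gamma chain list Il7r (0.47) and Il2rg (0.40) were higher and Stat5b (-0.47) and Il15 lower. Of the classical monocyte list Chil3 (1.54) and Ms4a4c (0.54) were higher and F13a1 (-1.47) and Ccr2 lower. Of the non-classical list 2 of 17 were higher and 5 lower, among them Dusp16 (1.43), Cd36 (1.74), Spn (-0.51) and Ace (-0.88). The chemokine receptors Cxcr2 (-1.34) and Ccr1 (-1.26) were lower and Ifng was higher (1.28), and of the S100 genes S100a10 (1.16) and S100a13 (0.57) were higher and S100a1 (-1.29) and S100a6 (-0.67) lower. Of these named genes Mpeg1, Il1rn, Tnfrsf1a, Adam17, Ace, S100a6 and S100a13 were not called with the column names.

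Markers of other blood cells also differed between the controls of the strains. In B6 controls, against a share of 26.4% called over all genes, 8 of 9 B cell markers, 3 of 8 natural killer cell markers and 4 of 8 erythroid markers were higher, while 2 of 13 neutrophil markers were lower, T cell markers were split (1 higher and 4 lower of 10) and dendritic cell markers too (2 higher and 3 lower of 7). In B6 susceptible mice against controls, 0 markers of these 6 cell types were called, where 4.50% of all genes were. Platelet markers were the ones called there, at the nominal threshold only. In B6 susceptible against resilient mice 1 T cell marker was higher, in resilient mice against controls 1 dendritic cell marker was lower, and in D2 susceptible mice against controls 0 markers of the 7 cell types were called by the labels. With the column names, where 6.80% of all genes were called, 3 of 9 B cell markers were higher in D2 susceptible mice. Lower there were 1 erythroid and 1 dendritic cell marker and 5 platelet markers.

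Across mice, 5 of the 10 genes were related to each other in every pairing. With group means removed over the 25 mice, all 10 pairs among Ccr2, Csf1r, Cx3cr1, Ly6c2 and S100a4 were positively related, with r between 0.66 and 0.91 (median 0.81), and all 10 had an adjusted p under 0.05 over the 45 pairs tested. Csf1r and S100a4 were closest, with r = 0.91 and rho = 0.92 (permutation within groups, p = 1e-05 for both, the smallest that 100000 resamples can give, adjusted p = 0.000225), 0.92 without the 2 mice farthest from the median of Csf1r, 0.89 in B6 and 0.97 in D2 mice. Ccr2 and S100a4 followed, with r = 0.90 and rho = 0.84 (permutation p = 3e-05 and 0.0001, adjusted p = 0.000338 and 0.00113). Ly6c2 and S100a4 had r = 0.89 and rho = 0.89 (permutation p = 1e-05, adjusted p = 0.000225). Cx3cr1 was related less closely to Ccr2 (r = 0.66, rho = 0.66) and to Ly6c2 (r = 0.67, rho = 0.65) than to Csf1r (r = 0.81, rho = 0.78), a difference that was not tested. Outside these 5 genes, Csf1r was also related to Cd14, with r = 0.73 and rho = 0.64 (adjusted permutation p = 0.003 and 0.0091).

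The summed levels of the wider monocyte lists did not all go with these 5 genes. The summed classical monocyte list had r = -0.36 with Ccr2, -0.39 with Ly6c2 and -0.37 with S100a4, and the summed non-classical list had r = -0.31 with Cx3cr1 and -0.41 with Csf1r, none of them with a permutation p under 0.05 after adjustment over 160 relations. Each sum held 1 gene that made up most of it, named here after its values were seen. Gpx1, a glutathione peroxidase, made up 74.1% of the summed CPM of the classical list and Cd9, a tetraspanin, 53.9% of that of the non-classical list. The summed monocyte and macrophage list, of which Lyz2, the lysozyme gene of myeloid cells, made up 64.6%, was positively related to all 5 by r, from 0.54 for Cx3cr1 (adjusted permutation p = 0.0384, and 0.0502 by rho) to 0.75 for Csf1r, which is itself on that list.

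The cytokines were related to fewer genes. Il1b was related to Csf1r with r = 0.59 and rho = 0.59 (adjusted permutation p = 0.0445 and 0.0284) and by r to Ccr2 with r = 0.57 and rho = 0.44 (adjusted permutation p = 0.0445 and 0.0924). Il1b was related to its decoy receptor Il1r2 with r = 0.56 and rho = 0.56 (permutation p = 0.00911 and 0.00992, adjusted p = 0.0342 and 0.0298), and r was 0.46 without the 2 mice farthest from the median of Il1b. Tnf was related to Cd14 with r = 0.53 and rho = 0.55 (adjusted p = 0.0374 and 0.0284 by permutation) and to Csf1r with r = 0.52 and rho = 0.49 (adjusted p = 0.0445 and 0.0478 by permutation). By rho it was also related to Ccr2 (r = 0.48, rho = 0.52, adjusted permutation p = 0.0551 and 0.0284) and S100a4 (r = 0.51, rho = 0.52, adjusted permutation p = 0.0542 and 0.0323). Il15 was related to 1 of the other 9 genes at an adjusted p under 0.05, Il1r2, with r = 0.52 and rho = 0.49 (permutation p = 0.0168 and 0.0202, adjusted p = 0.0445 and 0.0478), at 0.71 in B6 and 0.25 in D2 mice. Its relations with Ccr2, Csf1r, Ly6c2 and S100a4 were weak, between 0.13 and 0.28, and between -0.26 and -0.07 in D2 mice alone, and that with Cx3cr1 was 0.25, and 0.36 in D2 mice alone.

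**Figure D5:**
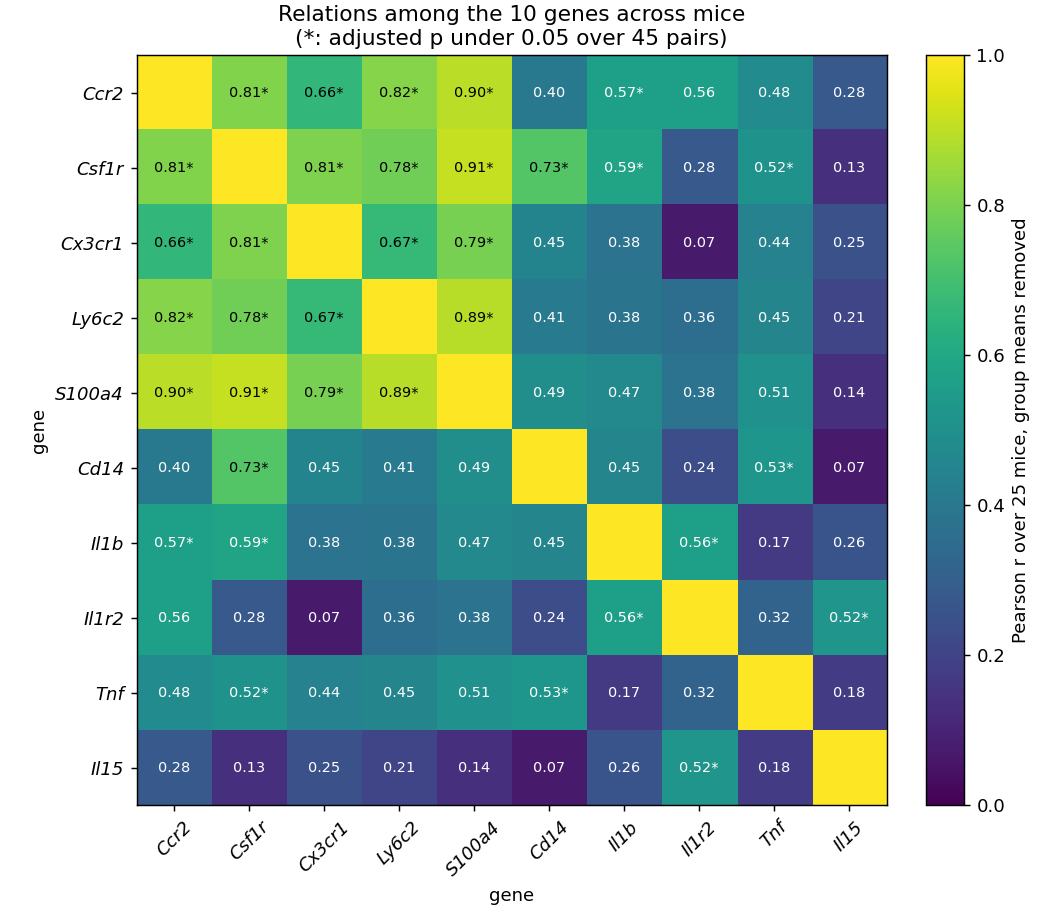
Pearson r of each pair of the 10 genes over 25 mice with group means removed (both axes, genes; colour and number, r; stars, adjusted p under 0.05 over 45 pairs). Ccr2, Csf1r, Cx3cr1, Ly6c2 and S100a4 form a block at 0.66 to 0.91. Cd14 reaches 0.73 with Csf1r, and Il15 reaches 0.52 with Il1r2 and less with the others.

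Marker levels of other cells were related to these genes across mice. In these sums too a single gene weighed heavily, with 69.2% of the summed CPM of the erythroid list and 48.8% of that of the neutrophil list. Summed erythroid markers, at 15.85 to 18.12 log2 CPM over all mice, went the opposite way, with r from -0.70 for Csf1r to -0.01 for Il15 (median -0.60) and an adjusted p under 0.05 over 160 relations for 5 of the 10 genes by r and 7 by rho. Summed neutrophil markers went the same way, with r from 0.30 to 0.71 (median 0.56 over the 10 genes), and passed for 4 genes by r: Ly6c2 (r = 0.71, rho = 0.64, adjusted permutation p = 0.00352 and 0.00768), Il1r2 (r = 0.67, rho = 0.60), Ccr2 (r = 0.60, rho = 0.41) and S100a4 (r = 0.59, rho = 0.60). T cell, B cell, natural killer cell and dendritic cell markers passed for 0 of the 10 by r. By rho, dendritic cell markers passed for 6 genes, Ccr2, Csf1r, Cx3cr1, Ly6c2, S100a4 and Tnf (rho from 0.54 to 0.62, adjusted permutation p from 0.0191 to 0.0474), and natural killer cell markers for Cx3cr1 (rho = 0.57, adjusted permutation p = 0.0318), while T cell and B cell markers passed for 0. Log2 CPM share 1 total per mouse, so a gene can fall as others rise, and the part of this in these relations was not tested.

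The genes whose values were most like each member over the 25 mice, by Pearson r with group means removed, are given as a description. Ccr2 was most like Ms4a6c (0.93), Mefv (0.92) and Rab31 (0.91), and S100a4 most like Ms4a6c (0.95), Ccl9 (0.92) and Plbd1 (0.91). Csf1r was most like Glud1 (0.93), Rab31 (0.92) and Ptpro (0.92), and Ly6c2 most like I830127L07Rik (0.92), S100a4 (0.89) and Ifitm6 (0.88). Cx3cr1 was most like Adgre4 (0.84), Slamf8 (0.82) and S1pr5 (0.82), where Adgre4 is itself on the list of non-classical monocyte genes. Il1r2 was most like Hdc (0.92), which makes histamine, the neutrophil chemokine receptor Cxcr2 (0.90) and Clec4d (0.89). Il1b was most like Arg2 (0.90), Fgl2 (0.90) and Junb (0.89), and Cd14 most like Dpep2 (0.89), Timp2 (0.87) and Akt1 (0.86). The genes most like Tnf included Sdhb (0.84) and Hps4 (0.80). Il15 was most like the actin-capping genes Capzb (0.87) and Capza2 (0.85) and the glutathione reductase gene Gsr (0.86). Of the genes named in this way, only Ms4a6c (Ccr2 and S100a4) and Rab31 (Ccr2 and Csf1r) were shared between members.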

How the data were processed

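Whole-blood mRNA of 25 mice was analysed. The authors depleted ribosomal and globin RNA, made stranded single-end libraries, aligned reads with STAR to GRCm38, counted them on genes with HTSeq and kept genes of at least 1 CPM in 6 or more samples. They deposited the values as log2 CPM made by voom. Every value of the 13084 genes gave back whole reads within 0.0001, which supplied the depth, 9751603 to 15878495 reads per mouse.

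Groups came from the labels, and 2 D2 mice whose column names disagreed were also regrouped or left out. Comparisons were fitted with limma 3.58.1 (R 4.3.3) on all 25 mice with 1 mean per group and a mean-variance trend in eBayes, and p-values were adjusted by Benjamini-Hochberg over all genes. Single genes were also compared by exact permutation of mice (Python 3.11.15, scipy 1.17.1). Relations between genes used log2 CPM with group means removed and 100000 permutations within groups, and those with marker lists were added after the data were seen. The fit was tested on simulated data. Alternatives were scaling, pseudocount, filter, weights, eBayes trend, groups in the fit, name prefix and left-out mice.

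The 10 genes and the lists were chosen with earlier results of these data known. Named besides were up to 4 called genes of smallest p per list and the 3 genes most like each member, and markers of other cells were kept to lists. Gene symbols matched 13054 IDs, and promoters came from RefSeq (GRCm38.p6). Files of brain tissue were not used here. Some genes that this rule would name are not reported here.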

Additional observations from a re-analysis of the deposited data

Results flagged for a closer look

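Over the 50 combinations of 10 genes and 5 groups, Dixon's test set 3 values apart from the other 4 mice of their group, and chance sets about 1 in 20 apart. Ccr2 in D2 control mouse 5 was 6.75 log2 CPM, below the other D2 controls at 7.77 to 8.17. Tnf in the same mouse was 1.05 log2 CPM, below the others at 2.32 to 2.68. S100a4 in B6 susceptible mouse 1 was 4.98 log2 CPM, the highest of its group. For Il15, susceptible less control was 1.15 higher in B6 than in D2 mice on the log2 scale (limma, adjusted p = 0.918). It was called at the nominal threshold, as were 5.37% of all genes. At an adjusted p under 0.05, 0 genes of the table passed in this difference between strains.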

How the results depend on the processing

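No paired analysis was possible because the labels of the blood samples give no replicate number or pairing between mice of different groups. Beside the reported fit, 11 other settings were tried, and each mouse was left out in turn. Over 60 fold changes of the 10 genes, 583 of 638 values kept their direction and side of the threshold under the other settings, 9 lost the call, 12 gained one and 34 changed sign. With 1 mouse left out, 605 of 700 did so, 19 lost the call, 20 gained one and 56 changed sign. Each fold change that changed sign was not called in the reported fit, and the cause was not tested. Without the eBayes trend, or with the compared groups alone, a fold change cannot move and only its p-value can. The same holds for comparisons among B6 mice when the D2 mice are regrouped or left out. Such values are among those that kept their direction. The name prefix could not be run as a term for B6 against D2 controls, since each prefix holds 1 strain.

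The number of the 10 genes called fell to 0 in B6 susceptible mice against controls with scaling to total reads, voom weights or sample weights. Of 13084 genes, 266, 548 and 333 were called under these settings, and 589 in the reported fit. In D2 susceptible mice against controls 0 of the 10 were called with scaling to total reads or the name prefix as a term, and 5 with sample weights. Of 13084 genes, these settings called 154, 140 and 992, and the reported fit 206. Between B6 and D2 controls the number of the 10 was 5 with voom weights, 7 with sample weights and 1 without the 2 mice whose label and column name disagree. Of 13084 genes, the same settings called 3547, 4272 and 3698, and the reported fit 3454. With 1 mouse left out, the number of the 10 genes called ran from 0 to 1 in B6 resilient mice against controls. It ran from 0 to 2 in B6 susceptible mice, both against controls and against resilient mice. The range was 0 to 3 in D2 susceptible mice against controls and 1 to 6 in B6 against D2 controls. Called genes over the whole table were not counted with 1 mouse left out.

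Scaling to total reads moved the median of all genes to -0.16 in B6 resilient mice against controls, -0.13 in B6 susceptible mice against controls and -0.18 between B6 and D2 controls. Under it the fold change turned to -0.098 for Ccr2, -0.15 for Csf1r, -0.17 for Cx3cr1, -0.056 for S100a4, -0.021 for Il1b and -0.060 for Il15 in resilient mice, to -0.063 for Ccr2 and -0.0007 for S100a4 in B6 susceptible mice against controls, and to -0.019 for Tnf in the difference between strains. Csf1r in resilient mice was -0.0092 with the name prefix as a term and Ly6c2 0.11 with sample weights. Between susceptible and resilient mice sample weights gave -0.28 for Ccr2 and -0.26 for S100a4, and voom weights -0.039 for S100a4 and -0.072 for Tnf. With the column names, D2 susceptible mice against controls gave 0.13 for Ccr2, 0.17 for S100a4, 0.54 for Cd14, 0.26 for Il1b, 0.0048 for Il1r2 and 0.16 for Tnf, and without the 2 mice 0.0092, 0.0096, 0.26 and 0.11 for Ccr2, S100a4, Cd14 and Il1b. Cd14 between B6 and D2 controls was 0.22 and 0.10 under the same changes. The difference between strains was then -0.038 for Ccr2, -0.13 for Csf1r, -0.078 for Cx3cr1, -0.049 for Ly6c2, -0.013 for S100a4 and -0.36 for Tnf with the column names, and -0.12 for Tnf without the 2 mice.

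The fold changes that changed sign when 1 mouse was left out had these ranges. In B6 resilient mice against controls, Ccr2 ran from -0.062 to 0.38, Csf1r ran from -0.090 to 0.28, Cx3cr1 ran from -0.21 to 0.22, Il15 ran from -0.018 to 0.30, Il1b ran from -0.026 to 0.49, Ly6c2 ran from -0.16 to 0.19 and S100a4 ran from -0.050 to 0.44. In B6 susceptible mice against controls, Ccr2 ran from -0.29 to 0.26, Csf1r ran from -0.41 to 0.083, Ly6c2 ran from -0.35 to 0.0072 and S100a4 ran from -0.13 to 0.39. In B6 susceptible against resilient mice, Ccr2 ran from -0.38 to 0.17, Cd14 ran from -0.41 to 0.39, Ly6c2 ran from -0.32 to 0.040, S100a4 ran from -0.29 to 0.20 and Tnf ran from -0.092 to 0.24. In D2 susceptible mice against controls, Cd14 ran from -0.42 to 0.089 and Il1b ran from -0.39 to 0.057. In B6 against D2 controls, Cd14 ran from -0.48 to 0.22 and Cx3cr1 ran from -0.37 to 0.0053. In the difference between strains, Ccr2 ran from -0.18 to 0.45, Csf1r ran from -0.14 to 0.35, Cx3cr1 ran from -0.0076 to 0.36 and Tnf ran from -0.10 to 0.37.

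Of 2160 counts of called genes over the wider lists, 1810 stayed within 1.5 times the reported count. Over all genes, the 589 called in B6 susceptible mice against controls became 266 with scaling to total reads, 333 with sample weights and 355 over genes of at least 5 CPM. The 276 in resilient mice became 146, 508 and 109 under the same changes, and the 266 between susceptible and resilient mice became 102 with scaling to total reads, 121 with those groups alone and 99 over genes of at least 5 CPM. The 206 in D2 susceptible mice became 992 with sample weights, 890 with the column names, 519 without the 2 mice, 341 with those groups alone, 140 with the name prefix and 108 over genes of at least 5 CPM. The 703 in the difference between strains became 455 with scaling to total reads, 1321 with the column names and 1070 without the 2 mice. Cd14 and Tnf were counted on the fewest reads, at least 5 and 14 per mouse.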
